A study of Drosophila melanogaster with 23 samples.

Results

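The genes described here encode 10 accessory subunits of mitochondrial complex I. They are ND42, CG6463, mtacp1, CG7712, CG3621, Pdsw, CG3192, CG9350, CG3446 and CG12203, chosen by symbol from the 17521 genes of the count table, and all 10 had enough reads to be tested in both sexes. RNA was sequenced from dissected whole brains of Canton-S flies, a wild-type laboratory strain, at 5, 20, 30 and 40 days after eclosion in females and in males. Every library came from a pool of 18 brains, no group carried a mutation, a transgene or a treatment, and the sexes were kept apart while they aged. There were 3 libraries per sex and age, except in 30-day-old males, which had the 2 libraries B and C. Another sample of that group, set aside because it held females, is not analysed here. A library's name gives its sex, its age in days and its replicate letter (F40B, M5A).

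Complex I (NADH:ubiquinone oxidoreductase) is the entry point of the respiratory chain: it takes electrons from NADH, passes them to ubiquinone and pumps protons across the inner mitochondrial membrane. Its core subunits carry the flavin, the iron-sulfur clusters and the proton channels, and some of them are encoded in the mitochondrial genome. Accessory subunits take no direct part in catalysis; all are encoded in the nucleus, and they surround the core, hold it together and are needed for its assembly. Neurons depend heavily on this machinery because the ion gradients behind electrical signalling are restored with mitochondrial ATP.

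The members are listed here by the place of their human counterparts in the enzyme, with positions on Release 6 (dm6) and each protein-coding gene given from end to end. In the peripheral arm, which reaches into the matrix, CG12203 (X, 19492421 to 19493337, plus strand) is the counterpart of NDUFS4, loss of which causes Leigh syndrome in humans. CG7712 (2R, 10897144 to 10897885, minus strand) is the counterpart of NDUFA6, a protein of the LYR family that binds an acyl carrier protein. That carrier is encoded by mtacp1 (3L, 1329949 to 1331631, plus strand), the counterpart of NDUFAB1, which also serves mitochondrial fatty acid synthesis and iron-sulfur cluster assembly. CG6463 (3L, 10693184 to 10694108, minus strand) and CG3621 (X, 2172526 to 2173432, plus strand) are the counterparts of NDUFA5 and NDUFA7 of the same arm. CG3446 (X, 6349016 to 6350401, minus strand) is the counterpart of NDUFA13, also known as GRIM-19, which lies where the peripheral and membrane arms meet.

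In the membrane arm, CG9350 (2R, 21025078 to 21026086, plus strand) is the counterpart of NDUFA11. Pdsw (2L, 3466157 to 3467334, plus strand) and CG3192 (X, 6677262 to 6679118, minus strand) are the counterparts of NDUFB10 and NDUFB8. ND42 (3R, 22027709 to 22029393, plus strand) is the counterpart of NDUFA10, a matrix-facing subunit with the fold of a nucleoside kinase. Of the 10 genes, 5 share exon bases with a gene on the opposite strand: CG7712 with CG12942 (79 bases), CG3621 with Cyp4d14 (18 bases), CG3192 with Fum1 (77 bases), CG3446 with CG3847 (221 bases) and CG12203 with CG12204 (46 bases). The study kept only reads assigned unambiguously to a feature, and whether they were counted by strand is not given in the sources used here. Whether reads from those stretches were assigned by strand or left out as ambiguous is therefore not known. The other 5 members overlap no annotated gene.

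Total counts per library ran from 6770442 to 28687450, with a median of 15628443, and the deepest groups were the 5-day-old flies of both sexes and 30-day-old males. The lowest count of any member in any library was 238 and the highest 4271, which is a counting error of 1.53% to 6.48% of the value, against a median spread (SD) of 10.5% between the libraries of a group. The neuronal marker elav (219 to 580 CPM, the count per 1e+06 counts of a library) and the glial marker repo (116 to 324 CPM) were present in all 23 libraries. The midgut gene mex1 was above 10 CPM in 5 libraries (F5B, F30A, F30B, F40A and M40C). The 10 midgut markers, mex1 among them, summed to 5009 CPM (F30B) to 21220 CPM (F30A) in these libraries. In the other 18 libraries they summed to 0.782 CPM (M30C) to 4536 CPM (M20A), with 2414 CPM in M30B and 1527 CPM in F20B. The limit on mex1 therefore does not set apart every library with midgut RNA. Levels below are CPM scaled by TMM within each sex, and per-length levels are RPKM (the same CPM divided by the exon length in kilobases). A gene is said to have risen or fallen only where it passed a 5% FDR (Benjamini-Hochberg) in a quasi-likelihood test (edgeR) across the 4 ages and again in that of the 2 ages compared. These are bulk measurements, so fewer cells of a type and less RNA per cell cannot be told apart. The tests set a difference against the spread between pools, estimated over all the libraries of a fit.

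The order of the members by per-length level shifted with age in females. At 40 days it ran from Pdsw (84.0 ± 3.43 RPKM, SD, n = 3) through mtacp1 (79.7), CG9350 (73.2), CG3446 (66.4), CG12203 (65.6), CG7712 (55.5), CG6463 (55.3), ND42 (54.3) and CG3192 (41.1) to CG3621 (40.1 RPKM). At 5 days it ran from Pdsw (178 RPKM) through CG9350 (156), CG7712 (147), CG12203 (146), mtacp1 (142), CG3446 (126), CG6463 (98.7), ND42 (86.4) and CG3192 (73.0) to CG3621 (68.9 RPKM). Pdsw was first and CG3621 last at both ages, while CG7712 stood sixth at 40 days and the third at 5 days. Neighbours in these orders overlapped between libraries, except CG12203 above CG7712 and ND42 above CG3192 at 40 days, and CG3446 above CG6463 at 5 days. In 5-day-old males CG9350 (185 RPKM) and Pdsw (182 RPKM) were at the top and CG3192 (76.4 ± 14.2 RPKM) at the bottom, and each pair of neighbours overlapped. By CPM the members stood between rank 1399 (CG3446) and rank 3488 (CG3621) of 10505 genes in 5-day-old females.

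The first question was whether these transcripts differ between the oldest and the youngest brains. In the oldest females, all 10 members fell relative to 5-day-old females, to between 37.9% (CG7712) and 62.8% (ND42) of the younger level. The median log2 fold change of the members was −0.88, against −0.03 over all 10505 genes tested, of which 4.87% (512) fell. In the test over the 4 ages, 10 of 10 members passed in females (adjusted p from 0.00532 to 0.0277), against 14.5% of all genes. Every 40-day-old female library was below every 5-day-old female library for 10 of 10 members, an arrangement that 18.6% of all genes showed.

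Among the genes of the peripheral arm, CG7712 had 34.0, 34.1 and 33.8 CPM in 40-day-old females A, B and C, against 103, 92.6 and 73.9 CPM in 5-day-old females. The lowest young library lay far above the highest old one. The old libraries differed by less than counting error alone would give (a spread of 0.395%, where counts of 252 to 577 carry 4.16% to 6.30%), so their closeness is no measure of precision. Its log2 fold change was −1.40 (SE 0.14, edgeR quasi-likelihood, Benjamini-Hochberg adjusted p = 0.000715), and that of CG12203 was −1.15 (SE 0.13, adjusted p = 0.00107). CG12203 had 51.4, 51.2 and 48.5 CPM in 40-day-old females, against 125, 116 and 94.2 CPM in 5-day-old females, and its libraries of the 2 ages did not overlap. The acyl carrier gene mtacp1 averaged 67.1 ± 6.97 CPM in 40-day-old females and 119 ± 22.4 CPM in 5-day-old females (SD, n = 3 each), and it fell by 0.83 on the log2 scale (SE 0.14). CG6463 averaged 33.0 ± 1.55 CPM in 40-day-old females and 58.9 ± 7.24 CPM in 5-day-old females and fell by 0.84. Both these genes and CG3621 (32.3 ± 1.26 CPM at 40 days, 55.6 ± 6.65 CPM at 5 days, a fall of 0.78) had no overlap between the ages.

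Members of the membrane arm fell by 0.67 to 1.09, a range that overlapped that of the peripheral arm (0.78 to 1.40). CG9350 had 47.7, 49.3 and 59.2 CPM in 40-day-old females, against 126, 105 and 101 CPM in 5-day-old females (log2 fold change −1.09, SE 0.12, edgeR adjusted p = 0.00107). Pdsw had 61.1, 60.0 and 64.9 CPM in 40-day-old females, against 143, 137 and 114 CPM in 5-day-old females (−1.08, SE 0.12, adjusted p = 0.00107). In both genes the old libraries lay far below the young ones, with no overlap. CG3192 averaged 56.9 ± 4.09 CPM in 40-day-old females and 101 ± 12.6 CPM in 5-day-old females and fell by 0.83. CG3446, at the junction of the arms, had 84.3, 86.8 and 81.0 CPM in 40-day-old females, against 171, 162 and 145 CPM in 5-day-old females, and fell by 0.92 (SE 0.12, adjusted p = 0.00202). ND42 moved least, with 99.6, 82.6 and 81.1 CPM in 40-day-old females, against 159, 137 and 124 CPM in 5-day-old females (−0.67, SE 0.14, adjusted p = 0.0152). The number of members that fell was 6 without library F40B and likewise 6 without F40C, and CG3621, CG6463, ND42 and mtacp1 were lost in both cases.

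**Figure D1:**
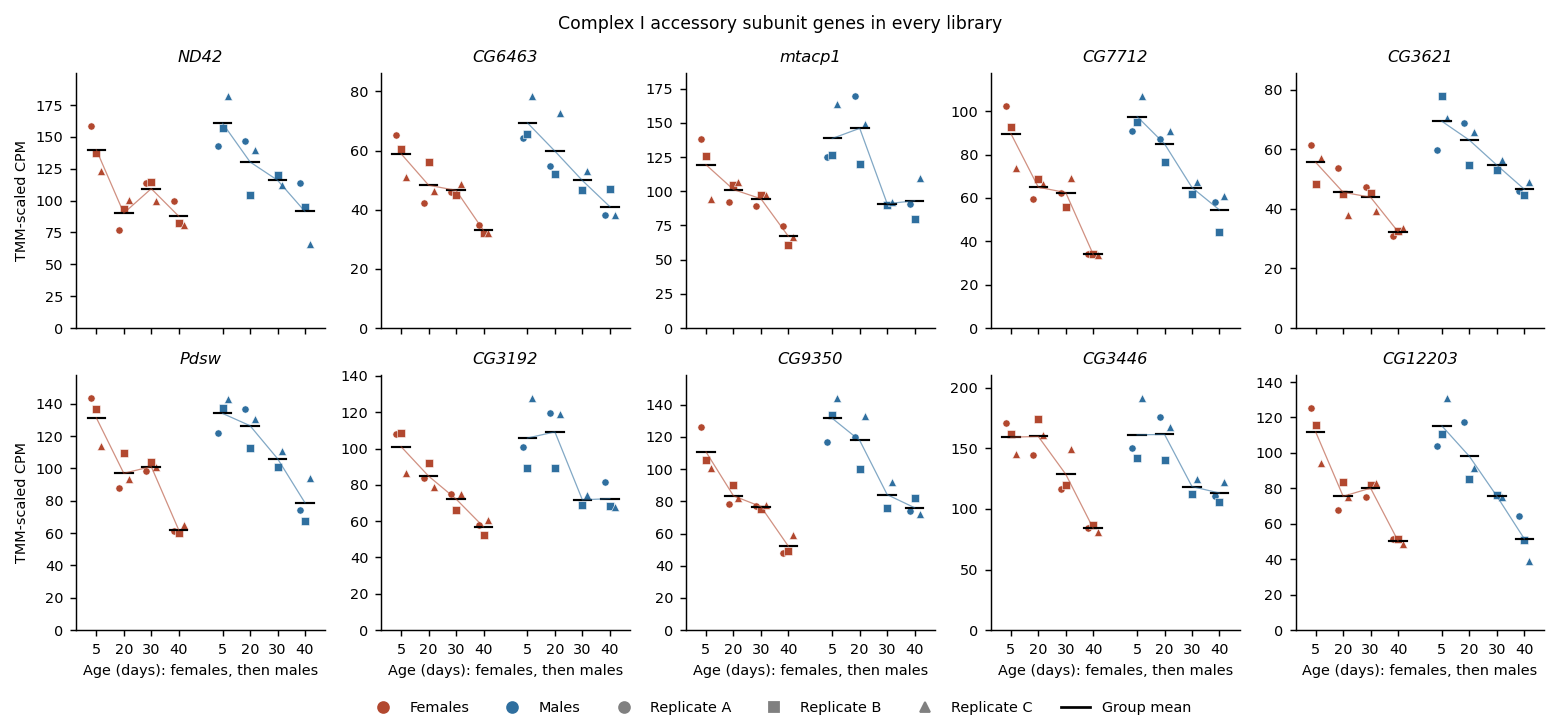
Level of each member in TMM-scaled CPM (vertical axes, linear, from 0) by age in days for females (red, left) and males (blue, right); each symbol is a library, its shape gives the replicate letter, and black bars are group means joined by thin lines. The 3 libraries of 40-day-old females lie below all 3 libraries of 5-day-old females in each of the 10 panels, with CG7712 at 33.8 to 34.1 CPM in the old group.

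Of the intermediate ages in females, CG12203 passed both tests at 20 and at 30 days. ND42 did so only at the first of them, and CG3192, CG7712 and CG9350 only at the second. At 20 days the edgeR adjusted p was 0.0857 for CG7712 and 0.093 for CG9350. The courses of the members were not compared by a test. At 20 days 2 members fell relative to 5 days, ND42 and CG12203, where 1.83% of all genes fell, and the median of the members was −0.35. ND42 had 76.8, 93.2 and 101 CPM in 20-day-old females, against 159, 137 and 124 CPM in 5-day-old females, so that the groups did not overlap (log2 fold change −0.63, SE 0.14, edgeR adjusted p = 0.0416). CG12203 had 67.7, 83.5 and 75.3 CPM in 20-day-old females and also lay wholly below the 5-day-old libraries (−0.57, SE 0.12, adjusted p = 0.0402). CG3446 stood apart from them: with 144, 174 and 161 CPM in 20-day-old females, against 171, 162 and 145 CPM in 5-day-old females, its groups overlapped throughout and its log2 difference was 0.01 (SE 0.12, adjusted p = 0.986), a sign that turned under other scalings and filters. The other 7 members had fold changes between −0.47 and −0.24, none past the threshold. These calls at 20 days rest on few libraries: the number of members that fell was 4 without F5C, 1 without F30B or F40A, and 0 without any one of F5A, F5B, F20A, F20B, F20C, F30A, F40B and F40C. It was also 0 when only the libraries of the 2 ages were fitted, where 0.00992% of all genes (1) fell. With a library left out, calls over all genes in either direction ran from 19 (without F20A) to 292 (without F30C). There were 139 without F5C, against 312 with every library.

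At 30 days 4 members had fallen relative to 5-day-old females (CG12203, CG3192, CG7712 and CG9350, by 0.48 to 0.53 on the log2 scale), where 4.82% of all genes fell. All 10 members were below 0 at an unadjusted p under 0.05, where 2771 of 10505 genes had such a p in either direction. CG9350 was lowest in relative terms, with 77.3, 75.2 and 77.7 CPM in 30-day-old females, all below the 5-day-old libraries (log2 fold change −0.53, SE 0.12, edgeR adjusted p = 0.0272). ND42, one of the pair that fell at 20 days, averaged 109 ± 8.23 CPM at 30 days and 90.2 ± 12.1 CPM at 20 days (SD, n = 3 each), with ranges of 99.9 to 114 CPM and 76.8 to 101 CPM that just overlapped. The number of members that fell at 30 days was 0 without F5A, F20C, F30A, F30B or F40B. It was 1 without F5B, F30C or F40C and 2 without F20B or F40A. It was also 0 when only the 2 ages were fitted, where 0% of all genes fell.

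Between 30 and 40 days the members fell again in females. Of the 10, 6 fell (CG12203, CG3446, CG6463, CG7712, CG9350 and Pdsw), where 2.88% of all genes fell, and the median was −0.53 against −0.04 over all genes. CG7712 had 34.0, 34.1 and 33.8 CPM in 40-day-old females, against 62.4, 55.6 and 69.3 CPM in 30-day-old females (log2 fold change −0.88, SE 0.13, edgeR adjusted p = 0.0169). Pdsw had 61.1, 60.0 and 64.9 CPM in 40-day-old females, against 98.6, 104 and 101 CPM in 30-day-old females (−0.71, SE 0.12, adjusted p = 0.0178). In both genes, as in the other 8, no 40-day-old library reached the lowest 30-day-old one, an arrangement that 17.1% of all genes showed. For ND42 the gap was as small as 99.6 against 99.9 CPM. For CG3446 most of the difference lay in this interval, with a fall of 0.61 (SE 0.12, adjusted p = 0.0233). The number that fell was 0 without F30A, F30B, F40B or F40C and 3 without F40A, and it was 2 (CG7712 and Pdsw) once a trend with exon length had been removed, where 1.5% of all genes fell. The median of the members was then −0.27, and before that removal the shortest 25% of genes had a median of −0.24.

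In males no member fell at any age by edgeR. At 40 days 10 of 10 members were nevertheless below their 5-day-old level at an unadjusted p under 0.05. Of all 10799 genes, 2183 had such a p, in either direction. The members' log2 fold changes ran from −1.16 (CG12203) to −0.51 (CG3446), with a median of −0.76. Over all genes the median was −0.01, and 0.102% (11) fell. The test over the 4 ages was passed by 0 of 10 members in males (adjusted p from 0.0953 to 0.224) and by 0.287% of all genes. The pairwise test alone was passed by 5 members (CG12203, CG6463, CG7712, CG9350 and Pdsw), against 1.5% of all genes that passed it with a lower level. With DESeq2, using a likelihood ratio test over ages and a Wald test of the contrast, 9 members fell (all but ND42), against 3.67% of all genes. A fit of both sexes together had 8 members falling in males, without CG3621 and ND42, against 2.12% of all genes. Every 40-day-old male library was below every 5-day-old male library for 10 of 10 members, as for 11.7% of all genes.

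CG12203 had 64.6, 51.1 and 38.9 CPM in 40-day-old males, against 104, 111 and 131 CPM in 5-day-old males (log2 fold change −1.16, SE 0.20, pairwise edgeR adjusted p = 0.0229). M40C was lowest, and the 3 old libraries spread widely but stayed below the young ones. CG7712 had 58.2, 44.2 and 60.9 CPM in 40-day-old males, against 90.7, 95.1 and 107 CPM in 5-day-old males (−0.84, SE 0.15, pairwise adjusted p = 0.0239). CG9350 had 74.1, 82.1 and 71.9 CPM in 40-day-old males, against 117, 134 and 144 CPM in 5-day-old males (−0.79, SE 0.15, pairwise adjusted p = 0.0262). In both genes old and young males were separated by more than either group's range. ND42 had 114, 94.8 and 65.8 CPM in 40-day-old males, against 143, 157 and 182 CPM in 5-day-old males (−0.81, SE 0.21, pairwise adjusted p = 0.0685). M40C was again the lowest of them, while for mtacp1 (90.3, 79.4 and 109 CPM in M40A, M40B and M40C), Pdsw (74.4, 67.5 and 94.4 CPM) and CG3446 (111, 106 and 122 CPM) it was the highest. M40C is 1 of the 5 libraries with mex1 above 10 CPM, and the part of that in these values was not tested.

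Intermediate ages gave no calls in males. At 20 days the median of the members was −0.15 and 0 of 10 members fell by edgeR, where 0.00926% of all genes (1) fell, or by DESeq2, where 1.05% did. By edgeR 7 of 10 members were below 0 and 0 had an unadjusted p under 0.05, where 1474 of 10799 genes did. With the trend with exon length removed the median was −0.40 and 10 of 10 were below 0, but again 0 fell (0% of all genes). At 30 days the median was −0.52 and 8 of 10 members had an unadjusted p under 0.05, but 0 of 10 fell, like 0% of all genes by edgeR (676 at an unadjusted p under 0.05) and 38 genes, with no member among them, by DESeq2. Both 30-day-old male libraries were below all 3 5-day-old male libraries for 10 of 10 members, as for 13.2% of all genes. These 2 libraries were as deep as those of 5-day-old males, and scaling by library totals in place of TMM moved the contrast up by 0.13 for all genes, so that the median of the members became −0.38. Between 30 and 40 days 0 of 10 members fell, like 0% of all genes by edgeR (914 at an unadjusted p under 0.05) and 10 genes, no member among them, by DESeq2. CG12203 (log2 difference −0.55, SE 0.22, adjusted p = 0.562) and Pdsw (−0.43, SE 0.17, adjusted p = 0.562) were the 2 members with an unadjusted p under 0.05. Of all 10, 8 were below 0, and 10 with library totals in place of TMM.

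**Figure D2:**
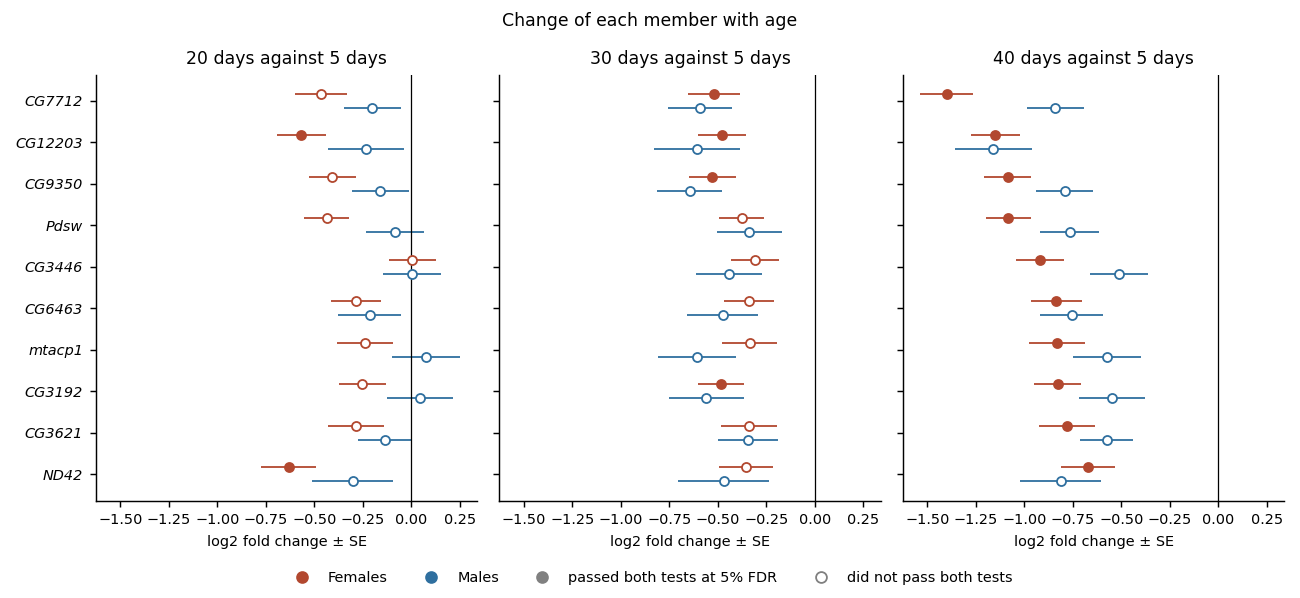
log2 fold change of each member (horizontal axis, bars are ± 1 SE) at 20, 30 and 40 days against 5 days of age, females in red above males in blue; filled points passed both edgeR tests at 5% FDR and open points did not. At 40 days all 10 points of females are filled, from −1.40 (CG7712) to −0.67 (ND42), and all 10 of males are open but lie between −1.16 and −0.51.

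An interaction term, in a single fit of the 8 groups, tested whether females and males changed differently with age. No member passed at 20, 30 or 40 days against 5 days, and neither did any gene of the 11332 tested (0% at each age, with 455, 992 and 712 genes at an unadjusted p under 0.05 by edgeR). DESeq2 called 23, 8 and 18 genes at the 3 ages and no member. So the 10 calls in females and the 0 in males are not shown to differ. At 40 days the differences, females minus males, ran from −0.56 (CG7712, SE 0.18, unadjusted p = 0.00597, adjusted p = 0.579) to 0.13. CG3446 (−0.42, SE 0.17) was the other member with an unadjusted p under 0.05 (0.0223). The median was −0.27, close to that of the shortest 25% of genes (−0.26), and with the trend with exon length removed it was 0.00, with 0 members at an unadjusted p under 0.05 and the lowest at −0.26. At 20 days 9 of 10 differences were below 0 (median −0.26), and at 30 days 9 of 10 were above 0 (median 0.14). With library totals in place of TMM the median at 30 days was −0.02, with 9 of 10 below 0.

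Females were then set against males of the same age. At 5 days 0 of 10 members passed, where 0.0618% of all genes were lower in females, and the log2 differences ran from −0.26 to 0.04. At 20 days 0 of 10 passed, where 0.176% of all genes were lower in females. However, 6 members were lower in females at an unadjusted p under 0.05 (median −0.31), where 1371 of 11332 genes had such a p in either direction. At 30 days 0 of 10 passed, where 0.353% were lower in females, and the median was 0.02. At 40 days 1 member, CG7712, was lower in females, where 0.282% of all genes were. On a scale common to both sexes it had 33.8, 34.0 and 34.6 CPM in 40-day-old females, against 58.0, 42.5 and 58.2 CPM in 40-day-old males, with no overlap between them (log2 difference −0.63, SE 0.13, edgeR adjusted p = 0.036).

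That call depended on the setting. It was not made with DESeq2's size factors in edgeR (adjusted p = 0.0549), with the unfiltered genes (0.0664), with the replicate letter as a block (0.29), with the trend with exon length removed (0.323, log2 difference −0.36), or without any one of F5B, F20B, F20C, F30A, F40A, F40B, F40C, M5A, M5B, M20A, M20C, M30B, M30C, M40A and M40C, each of which left 0 members. DESeq2 itself called CG7712 and CG9350, where 1.16% of all genes were lower in females. CG9350 had 47.5, 49.3 and 60.6 CPM in 40-day-old females, against 73.7, 78.9 and 68.7 CPM in 40-day-old males on the common scale (−0.49, SE 0.13, edgeR adjusted p = 0.0976).

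The members' estimated fold changes varied in size, and whether they differ from each other was not tested. The make-up of the set was described as each gene's share of the summed RPKM of the 10 genes, with no test. CG7712 made up 9.02% ± 0.266 in 40-day-old females and 11.97% ± 0.511 in 5-day-old females (SD, n = 3 each), and the libraries did not overlap. In males its share was 11.02% at 40 days (9.44% to 12.1% in single libraries) and 11.9% ± 0.282 at 5 days, with overlap. ND42 went the other way in females, with 8.82% ± 0.901 at 40 days and 7.09% ± 0.201 at 5 days, and dipped to 5.84% ± 0.640 at 20 days. CG3446 had its largest share at 20 days in females (13.2% ± 0.294), against 10.4% ± 0.453 at 5 days. CG12203 had 8.34% ± 2.01 in 40-day-old males, against 11.1% ± 0.117 in 5-day-old males, where the old libraries ran from 6.18% to 10.1%.

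**Figure D3:**
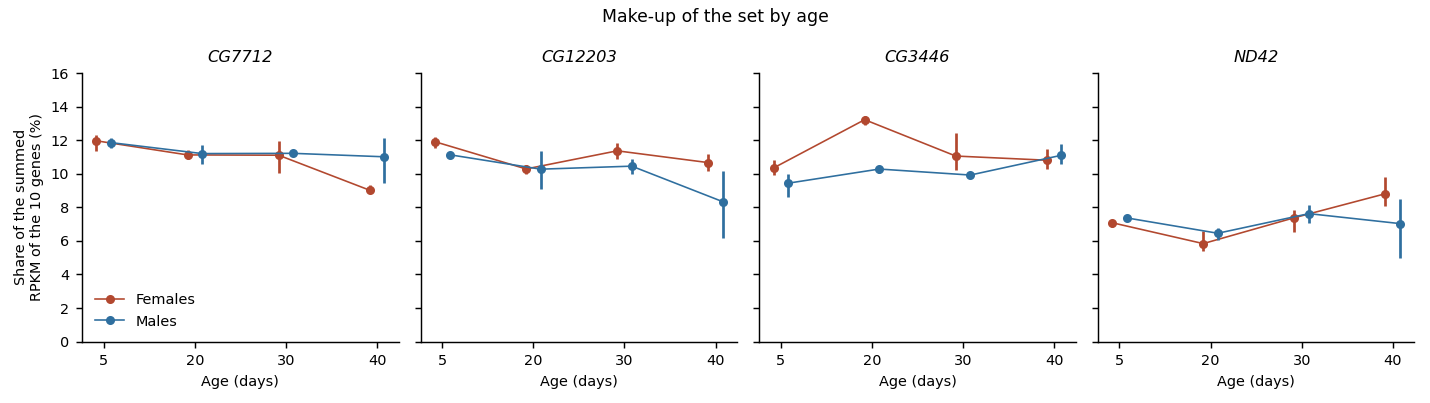
Share of each of 4 members in the summed RPKM of the 10 genes (percent, linear axis from 0) by age in days; points are group means of females (red) and males (blue), and vertical lines run from the lowest to the highest library. CG7712 is at 9.02% in 40-day-old females and 11.02% in 40-day-old males, and CG3446 peaks at 13.2% in 20-day-old females.

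Other genes of the respiratory chain were counted by lists. Of the other complex I accessory genes, 15 were in the table and 13 could be tested in females, of which 11 fell at 40 days against 5 days (median −0.98). Among them NP15.6 averaged 30.9 ± 4.32 CPM in 40-day-old females and 73.4 ± 12.5 CPM in 5-day-old females (log2 fold change −1.25, SE 0.14, edgeR adjusted p = 0.00107). Of the nuclear core genes of complex I, 6 of 6 fell (median −0.73), among them ND23, an iron-sulfur subunit, with 86.1 ± 2.56 CPM in 40-day-old females and 181 ± 21.6 CPM in 5-day-old females. Assembly factors of complex I were less uniform, with 1 of 6 falling (CG3270, log2 fold change −1.15, SE 0.20, adjusted p = 0.00591) and a median of −0.51. The members thus stood within the range of the structural genes of their own complex.

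Further along the chain in females, 3 of 4 genes of complex II, 9 of 10 of complex III with cytochrome c, 9 of 10 of complex IV and 12 of 12 of the ATP synthase fell at 40 days, and none rose. The medians were −1.04, −1.02, −1.07 and −1.08, against −0.88 for the members. The iron-sulfur subunit gene RFeSP of complex III averaged 158 CPM in 40-day-old females and 383 CPM in 5-day-old females (−1.28, SE 0.13, edgeR adjusted p = 0.00107). In males 2 genes of these lists fell at 40 days, ox of complex III (−0.81) and CoVIIc of complex IV (−0.86), with list medians from −0.87 (ATP synthase) to −0.20 (assembly factors of complex I). The mitochondrially encoded ND genes were not analysed here.

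**Figure D4:**
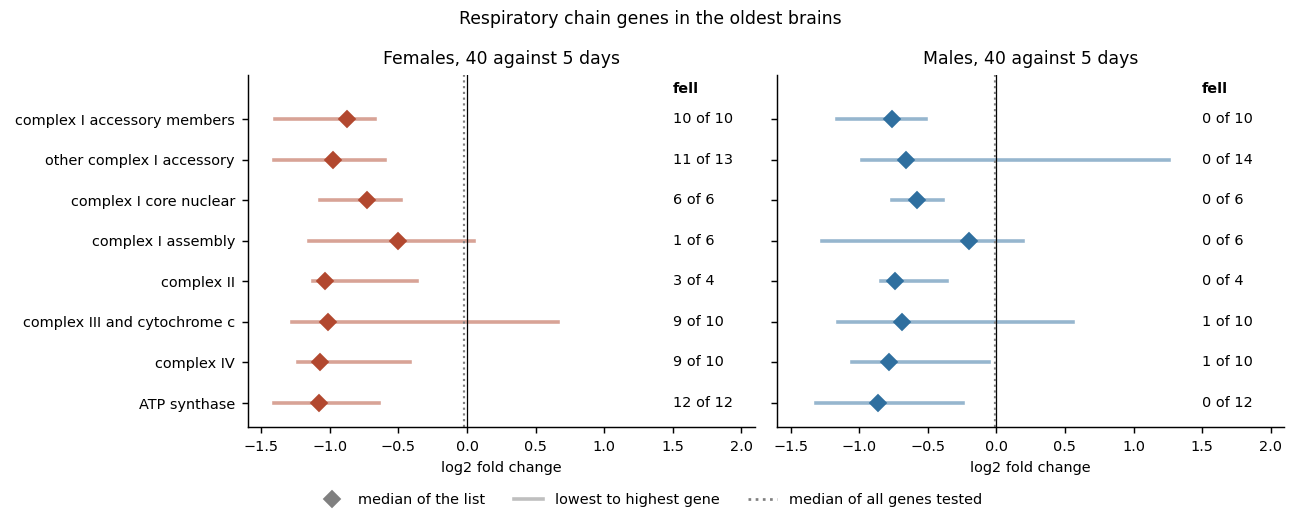
log2 fold change at 40 against 5 days (horizontal axis) for lists of respiratory chain genes in females (left) and males (right); diamonds are list medians, bars run from the lowest to the highest gene, the dotted line is the median of all genes tested, and the numbers at the right count genes that fell of genes tested. The members (top line) have medians of −0.88 in females and −0.76 in males, close to the other lists apart from the assembly factors.

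The members also varied together between libraries. Over the 12 female libraries the 45 pairs of members had Pearson correlations of log2 CPM from 0.49 to 0.99 (median 0.90), and over the 11 male libraries from 0.61 to 0.97 (median 0.83). All points of such a correlation share depth, scaling and age, and it is given as a description. The 10 genes outside the set whose log2 CPM was most like the members' median profile over the 23 libraries were CoVa, CG9306, levy, Chchd3, Pglym78, ATPsyn-d, CoVIIc, CG11876, RFeSP and CG4692 (r from 0.98 to 0.96). Of these, 7 belong to the respiratory chain lists. The remaining 3 are Chchd3 (listed in the table under an older symbol), Pglym78, a phosphoglycerate mutase of glycolysis, and CG11876 (now Pdhb), a subunit of pyruvate dehydrogenase. Because these genes were picked by their likeness to the members over the same libraries, their changes with age are not separate results. The log2 fold change of Pglym78 at 40 against 5 days was −1.02 in females and −0.80 in males.

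Markers of cell types and technical measures that moved beside these changes were as follows. In 40-day-old females the 6 neuronal markers summed to 4105 to 4854 CPM, against 3630 to 5730 CPM in 5-day-old females, and 0 of 6 fell or rose. Their median log2 fold change was 0.31, with 1 lower and 2 higher at an unadjusted p under 0.05. Of all 10505 genes, 2754 had such a p by edgeR. The 6 glial markers summed to 3175 to 3812 CPM in 40-day-old females, against 5088 to 8634 CPM in 5-day-old females, with 2 of 6 falling and a median log2 fold change of −0.85. In 40-day-old males the glial sum was 3324 to 5645 CPM, against 5869 to 9718 CPM in 5-day-old males, with 0 of 6 falling and a median of −0.79.

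Fat body markers, chiefly the yolk protein genes, summed to 3797 to 10193 CPM in 40-day-old females, against 21519 to 61967 CPM in 5-day-old females. Of the 4 that could be tested, 0 fell and 3 were lower at an unadjusted p under 0.05 (median log2 fold change −2.49). Hemocyte markers summed to 610 to 706 CPM in 40-day-old females, against 779 to 979 CPM in 5-day-old females, with 2 of 6 falling. In 30-day-old females, in which 4 members fell, neuronal markers summed to 2060 to 2893 CPM, against 3630 to 5730 CPM in 5-day-old females, with 2 of 6 falling and 6 at an unadjusted p under 0.05 (median log2 fold change −0.79). Glial markers summed to 4064 to 4263 CPM in 30-day-old females, against 5088 to 8634 CPM in 5-day-old females, with 1 of 6 falling (median −0.60). At 40 against 30 days in females, where 6 members fell, 4 of 6 neuronal markers rose (median 1.01). Muscle markers summed to 620 to 661 CPM in 30-day-old males, against 929 to 1968 CPM in 5-day-old males, with 0 of 16 falling and 12 at an unadjusted p under 0.05 (median −1.38). The part of these cell types in the members' levels was not tested.

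The members' exon lengths, 597 to 1618 bases, put most of them among short genes. The shortest 25% of genes tested in females (up to 1214 bases) had a median log2 fold change of −0.15 at 40 days, with 7.99% falling, and 0.11 at 20 days. With a trend of each library with exon length removed, 9 of 10 members fell in 40-day-old females (median −0.68), where 3.94% of all genes did. With the same removal 6 fell at 20 days in females (2.59% of all genes) and 2 in 40-day-old males (CG7712 and CG9350, against 0.44% of all genes). Without the 5 libraries with mex1 above 10 CPM, which left 2 libraries of 40-day-old, 1 of 30-day-old and 2 of 5-day-old females, no member passed both tests at 40 days, where 0.0357% of all genes (4) fell in females and 0.0184% (2) in males. The members' median was then −0.90 in 40-day-old females (from −1.39 to −0.79) and −0.69 in 40-day-old males (from −0.97 to −0.48). Leaving out F40A alone, the old female library among the 5, kept 9 members falling.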

How the data were processed

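RNA of pooled brains was sequenced in 23 libraries (8 groups). Per the labels and the study's methods, paired-end reads were trimmed by the authors (Trimmomatic 0.35), mapped on dm6 using STAR and assigned to genes by HTSeq in union mode. The deposited values are these raw counts per gene, not normalized. Symbols were matched to Ensembl's BDGP6 annotation for positions, overlaps and exon lengths.

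The 2 sexes were fitted separately by age (edgeR 4.0.16 under R 4.3.3) after filterByExpr and TMM, using robust quasi-likelihood. Interactions and comparisons of the sexes came from 1 fit of 8 groups and used the contrast alone. Tests are two-sided and adjusted over all genes tested (Benjamini-Hochberg). The script was tested on simulated counts. Genes named were the 10 members, up to 2 per list and sex by p, and the 10 most alike. Alternatives were DESeq2 1.42.0, other scalings and filters, a replicate block, other sets of libraries, a single pairwise test, and leaving out each library. Removal of a length trend and of libraries with mex1 above 10 CPM was chosen after seeing the data. Members and lists were chosen with earlier results of these data known.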

Additional observations from a re-analysis of the deposited data

How the results depend on the processing

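At 40 against 5 days in females, 6 to 10 members fell with a library left out. Under 10 of 11 other settings 9 or 10 members fell, where 326 (2 ages alone) and 766 (DESeq2) of all genes did. The exception was the fit without the libraries with mex1 above 10 CPM, which left 0 members falling in every comparison of females and at 40 days between the sexes, with 1 library of 30-day-old females that is assumed to vary like the other groups. Comparisons of males at 20 and 30 days and of 40 with 30 days, and the interaction at each age, had 0 members called under every setting run. At 20 days in females the main fit had 2 members and 192 of all genes falling. With DESeq2 and with library totals 4 members fell, where 500 and 259 genes did. The number of members was 6 with the length trend removed (270 genes) and 1 with the replicate block (271 genes). It was 0 in the fit of the 2 ages alone (1 gene) or of both sexes (206 genes), and 0 to 4 with a library left out. At 30 days the number was 0 in the fit of the 2 ages alone (0 genes), 2 in that of both sexes (375 genes) and 0 to 4 with a library left out. Between 40 and 30 days it was 2 with the length trend removed (156 genes) and 0 to 8 with a library left out. In 40-day-old males it was 9 with DESeq2 (401 genes) and 8 with both sexes fitted together (240 genes). It was 5 with the pairwise test alone (162 genes), 2 with the length trend removed (47 genes), and 0 whichever library was left out. For females against males at 40 days it was 2 with DESeq2, where 125 genes were lower in females. It was 0 with its size factors (28 genes), the unfiltered genes (21), the replicate block (2) or the length trend removed (12). With a library left out it was 0 to 1. Apart from the fewer libraries where some were left out, the cause of these differences was not tested.

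No member changed direction under any setting run at 30 or 40 against 5 days in either sex or at 40 against 30 days in females. Signs of 3 members turned at 20 days and of 2 at 40 against 30 days in males, of 2, 9 and 5 in the interaction at 20, 30 and 40 days, and of 5, 1, 8 and 2 for females against males at 5, 20, 30 and 40 days, and none of these members had been called there. CG3446 turned at 20 days in females: −0.0304 with library totals, −0.0169 with the unfiltered genes, −0.0470 with the length trend removed, and −0.0384 to 0.0719 with a library left out. Whether the replicate letters pair the samples was not tested. In females, deviations of same-letter libraries correlated from −0.57 to 0.59 (median 0.10, 10 of 18 pairs over 0.1). Those of different-letter libraries correlated from −0.62 to 0.67 (median −0.05, 13 of 36). In males the same-letter pairs ran from −0.40 to 0.34 (median −0.05, 2 of 15). The different-letter pairs of males ran from −0.47 to 0.49 (median 0.03, 10 of 30). With the letter as a replicate block 10 members fell at 40 days (485 of all genes) and 3 at 30 days (654 genes) in females. Between 40 and 30 days 5 members fell in females (271 genes). In males 0 members fell, where 1 gene did at 40 against 5 days. Standard errors of the members at 40 against 5 days were 0.14 to 0.21 in males and 0.12 to 0.15 in females.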
